A study of Mus musculus with 19 samples.

Results

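Whole ovaries of mice that had lost Indian hedgehog (Ihh KO) were set against ovaries heterozygous for both Dhh and Ihh, on 7 of the 19 arrays of the series. The 3 arrays titled Ihh_KO 1 to 3 formed one group, and the 4 control arrays titled Ihh_Dhh_dhet 5 to 8 the other. All 45037 probe sets that are not Affymetrix controls were used. The 7 arrays were selected by 2 measured values: bacterial RNAs added before hybridization, which divide the 19 arrays into 2 sets, and the stronger Dhh probe set. The added BioC RNA had a 3'/5' signal ratio of 0.758 to 0.776 on Ihh KO 1 to 3 and of 0.737 to 0.781 on controls 5 to 8, but of 0.987 to 1.06 on the remaining 4 controls and the 3 arrays of ovaries lacking both genes. Dhh probe set 1434959_at read 709, 527 and 636 on Ihh KO 1 to 3. It read 2.96 on the array labelled Ihh KO 4, which goes against that label, since the 4 Dhh KO arrays read 5.14 to 25.4. That array was therefore left out of the test and its values are given apart.

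The ovaries came from females 2 months old. The groups drawn on were Ihh KO 1 to 3, the array labelled Ihh KO 4, Dhh KO (4 arrays), the loss of both genes (DKO, 3 arrays) and the doubly heterozygous controls (4 arrays in each set), so every control ovary also carried 1 disrupted copy of each ligand gene. The deletions were made in the ovary only, per the labels; the sources used here name neither the driver of the deletion nor the Dhh genotype of the Ihh KO mice. Nothing says whether the arrays of a group came from separate animals, so a p-value measures the spread between these arrays, which may be technical.

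Indian hedgehog is a secreted ligand that granulosa cells of growing follicles make together with Desert hedgehog. The ligands bind Patched 1 (Ptch1) on neighbouring theca and stromal cells, which frees Smoothened (Smo) to activate the Gli transcription factors. Ptch1, Gli1 and Hhip are themselves Gli targets; Ptch1 and Hhip bind the ligand and restrain the signal. In whole-ovary RNA, fewer cells of a type and less RNA per cell cannot be told apart.

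Values are MAS5 signals, a scale on which the mean of each array, after its highest and lowest 2% are trimmed, had been set to 500. The median signal was 138, 130 and 106 on Ihh KO 1 to 3 and 152, 160, 149 and 115 on controls 5 to 8. The 3'/5' ratio of Gapdh, which rises as RNA degrades, was 1.90, 1.92 and 2.37 in Ihh KO and 1.89 to 2.01 in controls. Ihh KO 3 thus had the lowest median signal and the highest Gapdh ratio of the 7 arrays. Ovarian identity was plain in both groups: the inhibin subunit Inha averaged 6385 ± 376 (SD, n = 3) in Ihh KO and 6753 ± 662 (n = 4) in controls, and the median log2 change of 14 granulosa genes was -0.07 (0.13 after median centring). The median log2 change of all probe sets, Ihh KO minus control, was -0.12 on the deposited scale, -0.01 after quantile normalization and 0.08 after median centring, and changes below are to be read relative to it.

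Hhip, Smpx and Pank1 fell in Ihh KO, as did 1 probe set to which the platform annotation gives no gene. These 4 of 45037 probe sets (0.00888%) had a Benjamini-Hochberg adjusted p under 0.05 in limma on log2(signal + 7.01), the pseudocount being the 10th percentile of all signals. All 4 calls were falls. Unadjusted p was under 0.05 for 5296 probe sets, 1504 higher and 3792 lower. After median centring the calls were 7 higher and 3 lower (0.0222% of the probe sets), so the balance of directions depends on the scaling.

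Hhip encodes the Hedgehog-interacting protein, a membrane and secreted decoy that binds the ligands. Its probe set 1438083_at read 9.72, 1.83 and 12.0 on Ihh KO 1 to 3, against 139, 137, 146 and 151 on controls 5 to 8. The groups were far apart, and the array labelled Ihh KO 4 lay between them at 46.7. The log2 change was -3.41 (SE 0.36, adjusted p = 0.032). The other 3 Hhip probe sets were also lower on every Ihh KO array. Probe set 1455277_at, the brightest, read 49.9, 17.1 and 9.43 in Ihh KO, against 192, 245, 235 and 281 in controls, a change of -3.10 (SE 0.41, adjusted p = 0.079). Probe set 1421426_at changed by -2.51 (adjusted p = 0.16) and 1437933_at by -2.24 (adjusted p = 0.13).

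Smpx encodes a small cytoskeletal protein best known from striated muscle. It read 76.3, 61.7 and 132 in Ihh KO, against 440, 543, 511 and 494 in controls, a log2 change of -2.44 (SE 0.25, adjusted p = 0.032). Every Ihh KO array lay below every control, while the array labelled Ihh KO 4, at 811, lay above all of them. Pank1, a pantothenate kinase that catalyses the first step of coenzyme A synthesis, read 465, 564 and 629 in Ihh KO and 1256, 1388, 1487 and 1383 in controls (probe set 1457110_at). The log2 change was -1.32 (SE 0.13, adjusted p = 0.032), and the array labelled Ihh KO 4 read 1774. Pank1 has 4 probe sets, and none of the others had an unadjusted limma p under 0.001 in the same fit. Probe set 1454649_at, with no listed gene, read 265, 263 and 420 in Ihh KO and 977, 1173, 972 and 931 in controls. Its change was -1.69 (SE 0.18, adjusted p = 0.034), and it read 1089 on the array labelled Ihh KO 4.

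These calls depended on which arrays were in the fit. None of the 4 remained without Ihh KO 1, without Ihh KO 2, without control 5, without control 7 or without control 8; without control 5 the single call was Stc1. Without Ihh KO 3 there were 18 calls and without control 6 there were 20, with the 4 kept in both. The signs did not turn under any alternative run: Hhip 1438083_at ranged over -4.29 to -2.22, Smpx over -2.77 to -1.65, Pank1 over -1.41 to -0.90 and 1454649_at over -1.91 to -1.24. These 4 were selected on the same contrast, so their kept signs are no separate evidence.

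**Figure D1:**
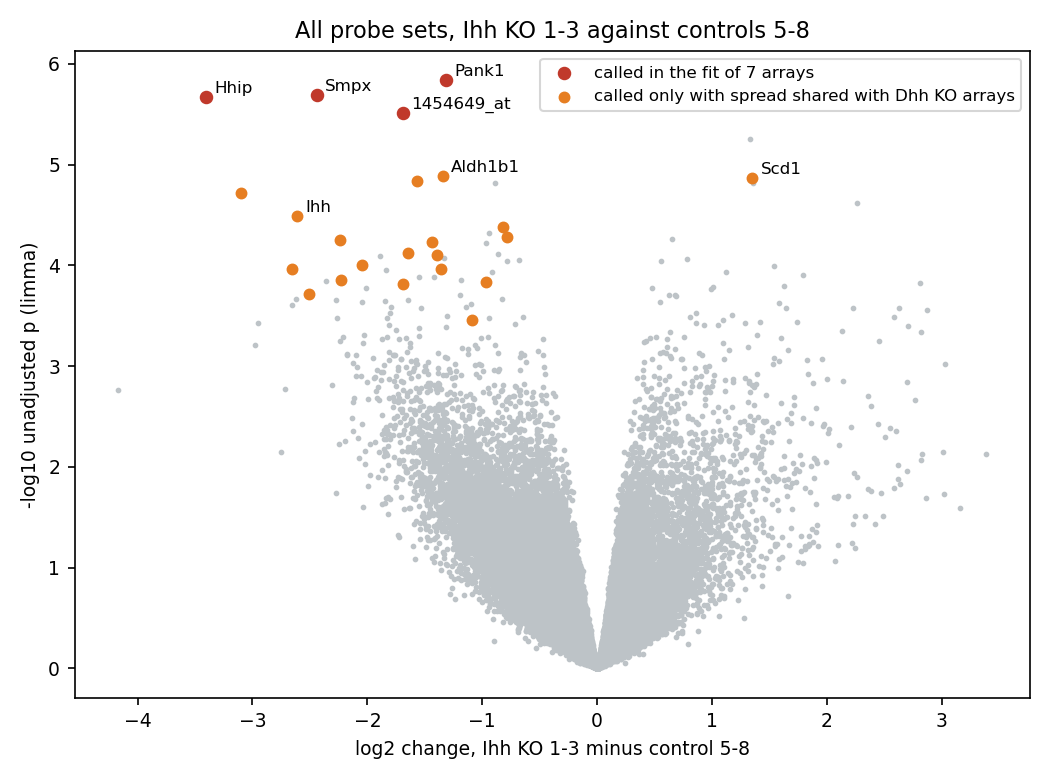
Each point is 1 of the 45037 probe sets, with the log2 change of Ihh KO 1 to 3 minus controls 5 to 8 on the horizontal axis and -log10 of the unadjusted limma p on the vertical axis. The 4 called probe sets, in red, lie at the upper left, and in orange are those called only when the spread was shared with the Dhh KO arrays.

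Windows around the starts of the 3 called genes were searched for the Gli binding motif and are shown with its core marked. Each window runs 250 bases before to 50 after the transcription start in RefSeq (GRCm38.p6), and capitals mark CCACCC or its reverse complement GGGTGG, the core that GACCACCCA contains. The Hhip window is chr8:80057959-80058258, the Smpx window chrX:157698723-157699022 and the Pank1 window chr19:34879406-34879705, with Hhip and Pank1 on the minus strand and Smpx on the plus strand. Pank1 has a further window that is not printed.
Hhip: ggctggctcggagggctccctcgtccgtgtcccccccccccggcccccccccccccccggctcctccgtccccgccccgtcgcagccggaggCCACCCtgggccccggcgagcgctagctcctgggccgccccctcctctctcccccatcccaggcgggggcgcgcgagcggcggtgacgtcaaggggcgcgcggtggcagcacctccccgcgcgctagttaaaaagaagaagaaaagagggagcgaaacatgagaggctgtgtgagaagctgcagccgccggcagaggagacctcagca
Smpx: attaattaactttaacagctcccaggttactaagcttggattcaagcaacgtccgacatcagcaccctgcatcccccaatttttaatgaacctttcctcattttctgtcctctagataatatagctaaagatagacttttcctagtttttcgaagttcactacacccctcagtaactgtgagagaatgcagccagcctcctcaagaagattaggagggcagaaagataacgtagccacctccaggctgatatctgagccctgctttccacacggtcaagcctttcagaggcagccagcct
Pank1: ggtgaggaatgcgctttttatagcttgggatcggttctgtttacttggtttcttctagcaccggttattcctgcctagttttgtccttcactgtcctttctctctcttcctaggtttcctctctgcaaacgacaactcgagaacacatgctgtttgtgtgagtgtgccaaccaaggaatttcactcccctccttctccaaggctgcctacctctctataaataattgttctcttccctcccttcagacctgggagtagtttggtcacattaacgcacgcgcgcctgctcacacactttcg
The whole consensus GACCACCCA, read on both strands, is in none of the 4 windows of these 3 genes, against 83 of 32851 windows in the table (0.253%). The core is in 1 of the 4, that of Hhip, against 10340 windows (31.5%). No match says only that these letters are not in this window.

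Ihh itself was lower in Ihh KO. Probe set 1450704_at read 12.5, 35.1 and 43.5 on Ihh KO 1 to 3, against 225, 238, 160 and 206 on controls 5 to 8. The groups did not overlap, and the log2 change was -2.62 (SE 0.37, limma adjusted p = 0.11), short of the threshold in the fit of 7 arrays. On the array labelled Ihh KO 4 it read 108, between the groups. The Dhh KO arrays read 108 to 168 for Ihh. Where its probes lie relative to the deleted part of the gene is not stated. Dhh, the other ovarian ligand, is given without a test because an array was selected on it. The stronger probe set read 811, 621, 1077 and 1085 on controls 5 to 8, so the 3 Ihh KO values given above lay low in or below that range. The weaker Dhh probe set, 1422127_at, read 41.9, 45.1 and 68.1 in Ihh KO and 86.2, 104, 79.6 and 70.4 in controls. Sonic hedgehog (Shh, 1427571_at) read 70.6, 51.2 and 26.5 in Ihh KO and 95.9, 49.0, 80.0 and 72.6 in controls, with overlapping groups.

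Of the Hedgehog target genes besides Hhip, Ptch1 encodes the receptor and Gli1 a transcriptional activator. Ptch1 probe set 1428853_at read 3226, 2950 and 3582 in Ihh KO and 4259, 4236, 4351 and 5104 in controls. All Ihh KO arrays lay below all controls, by a log2 change of -0.46 (SE 0.10, adjusted p = 0.24). With 4292, the array labelled Ihh KO 4 lay among the controls. A second probe set, 1450824_at, read 139, 108 and 111 in Ihh KO and 237, 224, 232 and 220 in controls, a change of -0.90 (SE 0.21, adjusted p = 0.25). The third, 1439663_at, overlapped at 70.5, 46.8 and 25.9 in Ihh KO and 62.9, 67.6, 45.1 and 43.0 in controls. Gli1 read 48.1, 36.0 and 17.7 in Ihh KO and 38.9, 107, 53.0 and 41.5 in controls. Its groups overlapped, and the change was -0.69 (SE 0.44, adjusted p = 0.56). In a fit of 18 arrays with the set as a block, which called 89 of 45037 probe sets (0.198%), Ptch1 1428853_at had an adjusted p of 0.040 and was called. Controls 1 to 4 followed controls 5 to 8 array by array for some genes. Akr1c18 read 886, 6722, 1559 and 44.0 on the former and 830, 5619, 1225 and 74.6 on the latter. Adipoq read 170, 30.1, 160 and 329, and 173, 57.3, 162 and 290. Whether the 2 sets of controls share ovaries or RNA is not stated. That fit counts all 8 controls as independent, so its adjusted p, here and below, may be too small.

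Downstream and alongside the receptor, 14 co-receptors and transducers were measured, and limma called none of them. Smo, the signal transducer that Ptch1 holds back, read 2935, 2939 and 3795 in Ihh KO and 3532, 2932, 2574 and 3137 in controls, and its change of 0.08 was within the array spread (SE 0.13). Gli3, which acts mainly as a repressor, had all 3 probe sets lower on every Ihh KO array, by -0.65, -0.35 and -0.56, with adjusted p of 0.37 to 0.45. Kif7, a ciliary kinesin of the pathway, read 225, 207 and 274 in Ihh KO and 344, 280, 275 and 318 in controls (-0.37, adjusted p = 0.47). Sufu, a negative regulator of the Gli proteins, had 2 of 3 probe sets below all controls. The co-receptor Gas1 was higher in mean, at 2112, 2580 and 2203 in Ihh KO and 1428, 1831, 2299 and 1041 in controls (0.53, adjusted p = 0.40). With 1 probe set per gene, the brightest, 2 members lay below all controls and none above; over the 18193 genes measured, 1701 (9.35%) lay below and 706 (3.88%) above. The list's median change of -0.15 was close to that of all probe sets. The sign of that median turned to 0.05 after median centring.

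**Figure D2:**
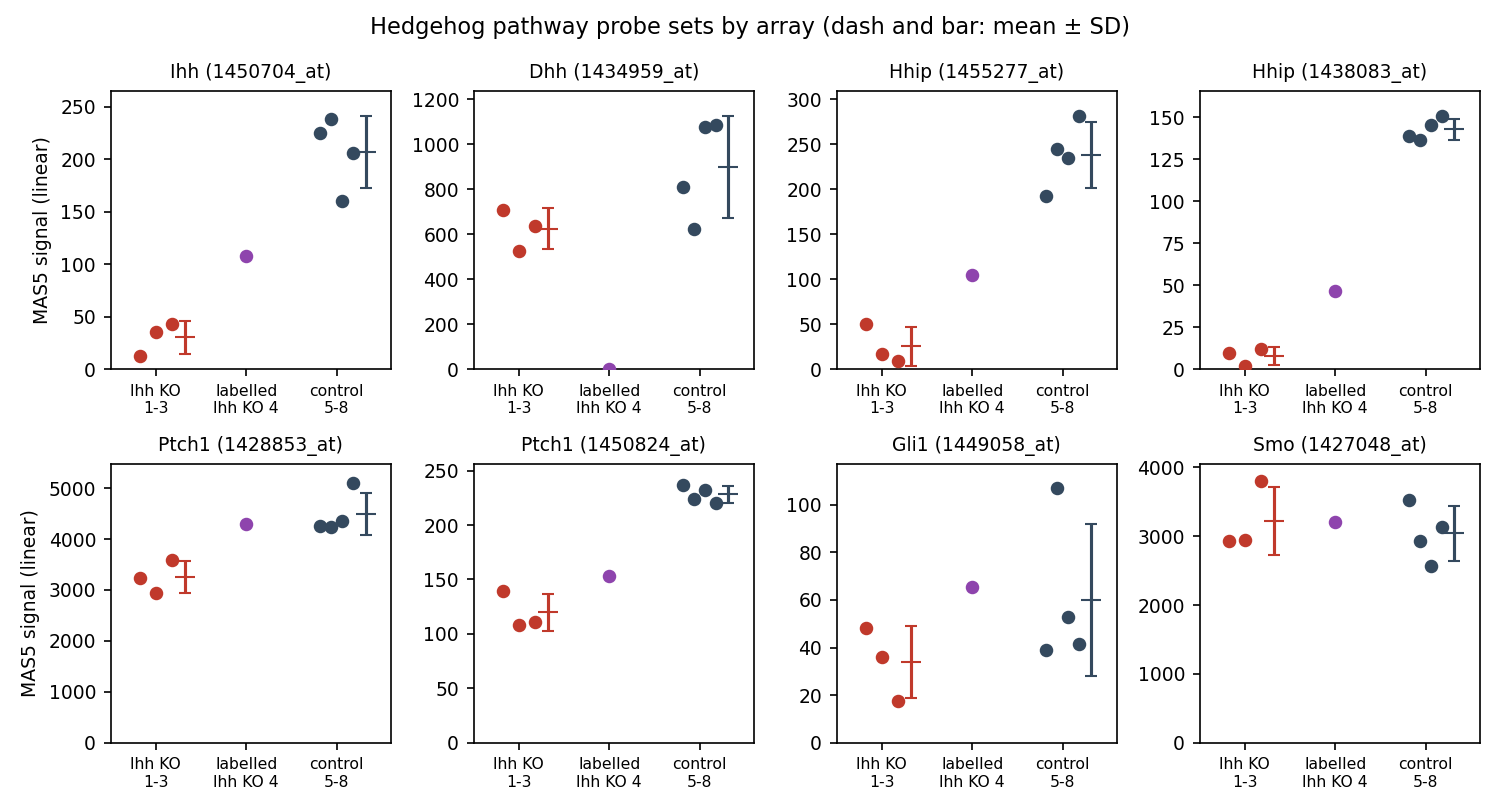
MAS5 signal, on a linear axis from 0, of 8 Hedgehog probe sets on Ihh KO 1 to 3 (red), the array labelled Ihh KO 4 (purple) and controls 5 to 8 (grey), with a point for each array and the mean ± SD beside each group. Ihh, Hhip and both Ptch1 probe sets shown were lower on all 3 Ihh KO arrays than on any control, whereas Gli1 and Smo overlapped.

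A fit that added the 4 Dhh KO arrays of the same set, which share the estimate of the spread, called 23 of 45037 probe sets (0.0511%), 1 higher and 22 lower. They included the 4 above and stood for 17 genes, with 3 probe sets that have no single gene. In each of the 23 the Ihh KO and control arrays did not overlap, as they did not in 2.97% of all probe sets above the controls and 8.53% below them; these 23 were selected on the same contrast. In this fit Ihh fell with an adjusted p of 0.0093 and all 4 Hhip probe sets fell, with adjusted p of 0.0019 to 0.048.

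Other regulators were among the falls of that fit. Tlx1, a homeobox transcription factor, read 11.4, 17.3 and 8.78 in Ihh KO and 92.6, 76.1, 61.9 and 62.6 in controls, a log2 change of -2.05 (SE 0.30, adjusted p = 0.033). Acvr1, a type I receptor for BMP and related ligands, read 852, 818 and 733 in Ihh KO and 1227, 1343, 1499 and 1495 in controls (-0.79, SE 0.11, adjusted p = 0.031). Fgfr2, a receptor for fibroblast growth factors, read 1561, 1524 and 1402 in Ihh KO and 2466, 2407, 2513 and 3229 in controls (-0.82, SE 0.12, adjusted p = 0.033). Both receptors were lower on every Ihh KO array than on any control, though control 8 stood apart from the other controls for Fgfr2. Fkbp5, a co-chaperone of steroid receptors, read 1.65, 9.95 and 2.89 in Ihh KO and 97.5, 91.4, 56.3 and 32.4 in controls (-2.65, SE 0.40, adjusted p = 0.040). Fkbp5 and Acvr1 have 3 probe sets each. In neither did a probe set besides the 1 given have an unadjusted limma p under 0.001 in the fit of 7 arrays.

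Enzymes formed a further share of the falls. Aldh1b1, a mitochondrial aldehyde dehydrogenase, read 233, 263 and 311 in Ihh KO and 681, 559, 752 and 784 in controls (-1.34, SE 0.15, adjusted p = 0.0062). Fmo2, a flavin monooxygenase, read 81.4, 74.9 and 94.1 in Ihh KO and 219, 236, 244 and 224 in controls (-1.40, SE 0.19, adjusted p = 0.026). Lao1, an L-amino acid oxidase, read 2.91, 1.86 and 5.66 in Ihh KO and 21.2, 29.3, 27.3 and 29.0 in controls, all low signals. Usp36, a deubiquitinase, read 112, 118 and 106 in Ihh KO and 316, 294, 371 and 229 in controls. The remaining named falls were the centrosomal proteins Cdk5rap2 (-1.44) and Nek2 (-0.96) and the Hsp70 relative Hspa12a (-1.09), each with an adjusted p of 0.044 to 0.048. Fmo2 has 5 probe sets and Cdk5rap2 has 3. In neither did a further probe set have an unadjusted limma p under 0.001 in the fit of 7 arrays.

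Scd1 was the single rise. It encodes stearoyl-CoA desaturase, which makes monounsaturated fatty acids, and read 1598, 2033 and 1641 in Ihh KO against 690, 622, 910 and 550 in controls. The log2 change was 1.35 (SE 0.21, adjusted p = 0.044), and its only other probe set also had an unadjusted p under 0.001. On the array labelled Ihh KO 4 it read 2214, above all of them.

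The array labelled Ihh KO 4 shared few of these values with Ihh KO 1 to 3. Of the 23 probe sets it lay inside the range of Ihh KO 1 to 3 in 1 and inside the range of controls 5 to 8 in 7. It was on the Ihh KO side of the control mean in 18. With that array kept in the Ihh KO group limma called no probe set, while 5225 had an unadjusted p under 0.05.

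**Figure D3:**
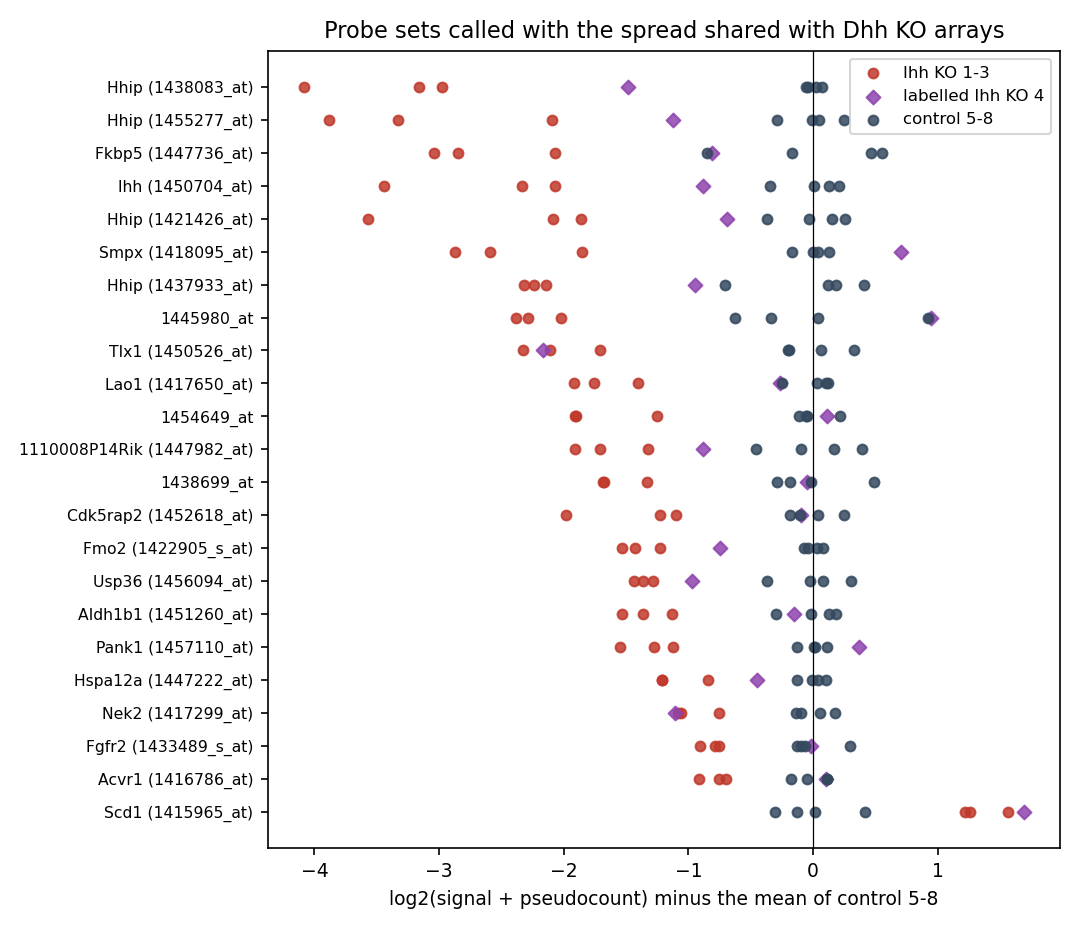
The 23 probe sets called with the spread shared with the Dhh KO arrays, with log2(signal + pseudocount) of each array minus the mean of controls 5 to 8 on the horizontal axis. Ihh KO 1 to 3 are red circles, the array labelled Ihh KO 4 a purple diamond and the controls grey circles; in each of the 23 the Ihh KO 1 to 3 points are separate from the control points.

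The same probe sets had these differences in the other genotypes, given as values only. Dhh KO shares controls 5 to 8 with Ihh KO, and DKO is set against controls 1 to 4. Hhip 1438083_at stood at -3.41 in Ihh KO, -0.58 in Dhh KO and -2.91 in DKO, and 1455277_at at -3.10 in Ihh KO, -0.05 in Dhh KO and -3.02 in DKO. Hhip 1421426_at stood at -2.51 in Ihh KO, -0.29 in Dhh KO and -2.78 in DKO, and 1437933_at at -2.24 in Ihh KO, -0.38 in Dhh KO and -1.01 in DKO. All 4 Hhip probe sets were thus lower in DKO than in Dhh KO, though by differing amounts. Smpx stood at -2.44 in Ihh KO, -0.04 in Dhh KO and -1.76 in DKO. Pank1 stood at -1.32 in Ihh KO, -0.11 in Dhh KO and -1.33 in DKO. Aldh1b1 was at -1.34 in Ihh KO, -0.30 in Dhh KO and -1.69 in DKO. Acvr1 was at -0.79 in Ihh KO, -0.03 in Dhh KO and -0.92 in DKO. For these 5 genes, Dhh KO thus lay nearer to its controls than Ihh KO and DKO did. Tlx1 was at -2.05 in Ihh KO, -0.72 in Dhh KO and 0.05 in DKO. Usp36 was at -1.36 in Ihh KO, -0.76 in Dhh KO and 0.32 in DKO. Nek2 was at -0.96 in Ihh KO, -0.35 in Dhh KO and 0.24 in DKO, and Lao1 was at -1.69 in Ihh KO, -0.20 in Dhh KO and 0.40 in DKO. For these 4 the DKO arrays were not below their own controls in mean. Controls of the other set read Tlx1 at 18.8 ± 5.17 (SD, n = 4) and controls 5 to 8 at 73.3 ± 14.4 (n = 4), so the 2 sets differ for that gene in controls alone. Whether the hybridization set or the ovaries made such differences was not tested. Controls of the other set were also lower than controls 5 to 8 for Lao1 (7.40 ± 4.11 against 26.7 ± 3.77), Usp36 (164 ± 39.96 against 302 ± 58.7), Nek2 (333 ± 101 against 510 ± 52.1) and Fkbp5 (3.42 ± 5.37 against 69.4 ± 30.6). Fmo2 also read lower on controls 1 to 4 (111 ± 45.7 against 231 ± 11.5), as did Hspa12a (173 ± 34.4 against 270 ± 18.8). Hhip 1438083_at did too (79.8 ± 48.7 against 143 ± 6.37), while Aldh1b1 did not (755 ± 189 against 694 ± 99.6). A DKO difference for the genes lower on controls 1 to 4 is therefore taken from a lower control level. The differences between genotypes were not tested here.

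**Figure D4:**
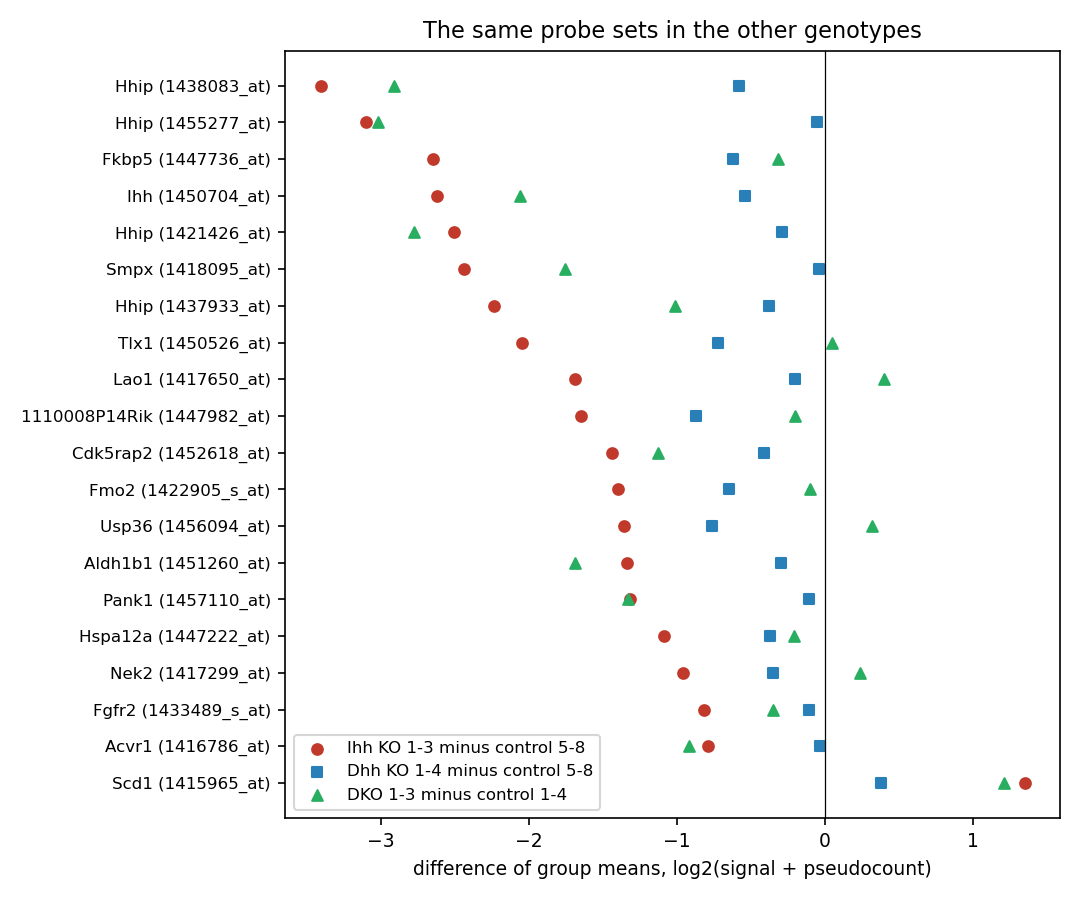
Difference of group means of log2(signal + pseudocount) for the single-gene probe sets called with the shared spread: Ihh KO 1 to 3 minus controls 5 to 8 (red circles), Dhh KO 1 to 4 minus the same controls (blue squares) and DKO 1 to 3 minus controls 1 to 4 (green triangles). The Hhip probe sets, Smpx and Pank1 have the green triangle below 0 and left of the blue square, and Tlx1, Lao1, Usp36 and Nek2 have it above 0.

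Other large differences were not called by limma in the fit of 7 arrays, though some were in other fits. Among 187 probe sets with an unadjusted p under 0.001, 72 were higher and 115 lower. At least 2-fold differences made up 39 of those 72 and 91 of those 115. Mgat4c, a glycosyltransferase, read 14.6, 4.97 and 44.5 in Ihh KO and 151, 82.6, 239 and 319 in controls (-2.95, adjusted p = 0.19). Klhl14 stood at -2.66 (adjusted p = 0.17), the adhesion molecule Ntm at -2.27, the zinc transporter Slc30a2 at -2.26 and Bpifb1 at -2.18. Among the named genes of this group the highest were Tlcd4 at 3.03 (adjusted p = 0.23), the high-affinity IgE receptor subunit Fcer1a at 2.70, the interleukin 15 receptor Il15ra at 2.62, the endothelial lipase Lipg at 2.59 and the cytokine-signal inhibitor Cish at 2.22. Lipg read 3574, 3934 and 2943 in Ihh KO and 438, 1636, 597 and 244 in controls. Fcer1a, Cma1 (1.96) and Mrgprb1 (1.82) are known from mast cells, and Cd3e (1.79) from T cells. Rasd2 (2.13) and Amigo1 (1.74) were also higher on every Ihh KO array. Amigo1 averaged 1362 in Ihh KO and 421 on controls 5 to 8, but 1223 on controls 1 to 4. It has 5 probe sets, and no other had an unadjusted limma p under 0.001 in the fit of 7 arrays. Cd3e averaged 36.8 in Ihh KO and 5.80 on controls 5 to 8, the latter under the pseudocount of 7.01. With 18 arrays and the set as a block limma called Klhl14 (adjusted p = 0.011), Slc30a2 (0.011), Bpifb1 (0.025), Il15ra (0.009), Cd3e (0.041) and Amigo1 (0.041). After median centring it called Lipg (adjusted p = 0.044) and Cish (0.039).

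The gene lists below take 1 probe set per gene, and at that probe set no list had a member that limma called in the fit of 7 arrays. A member is counted as above or below where all 3 Ihh KO arrays lay above or below all 4 controls. The shares over all genes were 3.88% above and 9.35% below. The lists and members were chosen with earlier results of these data known, so a count beyond these shares is no test of a list. The median log2 change over the 18193 genes was -0.09.

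Stromal transcription factors lay below the controls more often than above. Of 13 measured, 10 had the lower mean in Ihh KO, 6 lay below all controls and none above, with a median of -0.52 (-0.32 after median centring). Tbx3, a T-box repressor, read 270, 223 and 537 in Ihh KO and 1356, 1459, 1973 and 743 in controls (-2.01, SE 0.35, adjusted p = 0.16). Osr2, an odd-skipped zinc finger factor, read 176, 138 and 469 in Ihh KO and 665, 935, 700 and 774 in controls (-1.72, SE 0.35, adjusted p = 0.21). The array labelled Ihh KO 4 read 1900 for Tbx3 and 1134 for Osr2, within or above the controls. Vgll3, a TEAD cofactor, stood at -1.44, Osr1 at -0.82, Tbx2 at -0.52 and Nr2f2 at -0.24. The 3 with the higher mean, Nr2f1 (0.63), Maf (0.53) and Wt1 (0.36), overlapped the controls, with adjusted p of 0.39 to 0.52. With 18 arrays and the set as a block limma called Tbx3 (adjusted p = 0.032) and Osr2 (adjusted p = 0.014).

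Steroidogenic and luteal genes varied between arrays, and none was called in the fit of 7 arrays. Of 8 theca and steroidogenic genes, Scarb1 and Cyp11a1 lay above all controls, and the list's median was 0.09. Scarb1, the receptor that takes up cholesterol from high-density lipoprotein, read 5951, 7358 and 3534 in Ihh KO and 2565, 3142, 2759 and 1689 in controls (1.11, SE 0.26, adjusted p = 0.25). Cyp11a1, the enzyme that starts steroid synthesis from cholesterol, read 10176, 10546 and 9231 in Ihh KO and 7571, 8738, 8309 and 4607 in controls. Cyp17a1, which makes androgens in theca cells, spanned 176 to 2938 in Ihh KO and 117 to 5927 in controls. Of 7 corpus luteum genes, 4 had the higher and 3 the lower mean, and 2 lay above all controls, with a median of 1.55. Ptgfr, the prostaglandin F receptor, read 4380, 5683 and 5939 in Ihh KO and 1257, 4278, 1159 and 123 in controls. Akr1c18, which inactivates progesterone, read 4083, 7506 and 9825 in Ihh KO and 830, 5619, 1225 and 74.6 in controls. In the other direction Mgarp read 5187, 4304 and 6014 in Ihh KO and 8227, 9314, 10147 and 5368 in controls (-0.65, adjusted p = 0.31), Parm1 stood at -0.73 and Pgf at -0.38, all with overlapping groups. By array, the luteal list stood at 1.41, 1.58 and 0.94 in Ihh KO and at 0.03, 1.10, 0.34 and -0.77 in controls, so the groups overlapped at control 6. Without control 8, the lowest, the list's median was 0.68. Whether the luteal level has a part in the other differences was not tested.

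Cholesterol synthesis and uptake genes read highest on Ihh KO 1 and Ihh KO 2. Of 18 measured, 17 had the higher mean in Ihh KO and 3 lay above all controls, with a median of 0.77. By array, the list stood at 0.94 (Ihh KO 1), 1.31 (Ihh KO 2) and 0.10 (Ihh KO 3) and at -0.17 to 0.17 in controls, so Ihh KO 3 lay within the control range. Hmgcs1, an early enzyme of the pathway, read 9274, 12466 and 8892 in Ihh KO and 6506, 6724, 7123 and 5667 in controls (0.64, SE 0.13, adjusted p = 0.21). Ebp and Sc5d, enzymes of its late steps, had changes of 0.80 and 1.00, also above all controls, and Ebp was called with the set as a block (adjusted p = 0.025). On the array labelled Ihh KO 4 the level was -0.14. Without Ihh KO 2 the list's median was 0.56 and without Ihh KO 3 it was 1.13.

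Mast cell genes had the higher mean in Ihh KO in 7 of 7. Of these, 4 lay above all controls, with a median of 1.60 (1.80 after median centring). Their summed signal was 531 to 1302 in Ihh KO and 139 to 445 in controls. Cpa3, a mast cell carboxypeptidase, read 241, 347 and 163 in Ihh KO and 106, 70.4, 34.1 and 19.8 in controls (2.14, SE 0.49, adjusted p = 0.25). Fcer1a read 60.6, 155 and 50.1 in Ihh KO and 22.7, 4.74, 3.52 and 1.06 in controls. Ms4a2, another chain of the IgE receptor, read 39.9, 62.2 and 36.8 in Ihh KO and 7.43, 12.3, 9.03 and 12.4 in controls. The array labelled Ihh KO 4 had a list level of -0.03. The 12 macrophage genes had none above or below all controls, with a median of 0.27.

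Cell division and contractile genes had mostly lower means. All 12 measured cell division genes had the lower mean in Ihh KO and 3 lay below all controls, with a median of -0.39 (-0.19 after median centring). Bub1, a spindle checkpoint kinase, read 499, 542 and 493 in Ihh KO and 708, 667, 719 and 918 in controls (-0.54, SE 0.14, adjusted p = 0.28). Ccna2, a cyclin, read 2307, 2197 and 1799 in Ihh KO and 2659, 2568, 2756 and 3252 in controls. Ihh KO 3 was the lowest array for this list at -0.65. Of 15 smooth muscle genes, 12 had the lower mean and 3 (Cnn1, Actg2 and Synpo2) lay below all controls, with a median of -0.26 (-0.06 after median centring). Calponin 1 (Cnn1) read 250, 201 and 128 in Ihh KO and 314, 496, 397 and 337 in controls (-1.00, SE 0.26, adjusted p = 0.27). Of 13 laminin and basement membrane genes, 8 had the lower and 5 the higher mean, and Lama2, Lamb2 and Hspg2 lay below all controls, with a median of -0.28 (-0.08 after median centring). Lama2, a laminin chain, read 468, 426 and 466 in Ihh KO and 661, 773, 707 and 859 in controls (-0.71, SE 0.14, adjusted p = 0.19).

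The list of calcium handling and secreted hormones held members far apart. Stc1, the secreted glycoprotein stanniocalcin 1, read 99.1, 85.4 and 82.3 in Ihh KO and 195, 714, 656 and 593 in controls (-2.36, SE 0.40, adjusted p = 0.15). Atp2b3, a plasma membrane calcium pump, read 28.7, 16.9 and 82.4 in Ihh KO and 164, 256, 423 and 233 in controls (-2.62, SE 0.47, adjusted p = 0.17). Both lay below all controls, as did Atp2b2, while Calcrl and Ramp2, which together form the adrenomedullin receptor, lay above them. Atp2b3 was called with the set as a block (adjusted p = 0.017). In DKO Atp2b3 stood at -4.64 against controls 1 to 4. The calcium list's median was 0.21, and 0.02 without control 5.

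Among immediate early genes 13 of 14 had the higher mean, and Egr3 and Zfp36 lay above all controls. The list's median of 0.59 was 0.25 without Ihh KO 3. Of 11 surface epithelium genes, Krt8, Krt18 and Cdh1 lay above all controls (median 0.21), and the array labelled Ihh KO 4 had the highest level, 0.57. Of 13 blood endothelium genes, 10 had the higher mean and Pecam1 and Tek lay above all controls, while Vwf stood at -0.70 (adjusted p = 0.37). The endothelial median was 0.25, but 0.07 without Ihh KO 2 and 0.45 after median centring. Of 6 lymphatic genes none lay outside the controls (median 0.25). The 14 granulosa genes had none above or below all controls. Among them Inhbb, an activin and inhibin subunit, read 7621, 6545 and 5753 in Ihh KO and 8100, 7103, 8317 and 8134 in controls. Of 12 ovulation genes, Btc and Has2 lay below all controls (median -0.21), and of 14 oocyte genes Figla and Sohlh1 did (median -0.09). Insulin-like growth factor genes had a median of -0.05 with Igf2 and Igfbp6 below all controls, fibrillar collagens and matrix 0.10 with Col6a3 above, BMP and TGF-beta genes 0.01 with Tgfb1 above, and Wnt ligands and antagonists 0.13 with Sfrp4 above. Oviduct epithelium (-0.28) had Cldn3 below all controls. Adipocyte genes (-0.06) and red blood cell genes (-0.28) had none outside the controls. The medians of the oocyte, insulin-like growth factor, collagen, BMP, Wnt, oviduct, adipocyte and red blood cell lists turned sign under at least 1 alternative.

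**Figure D5:**
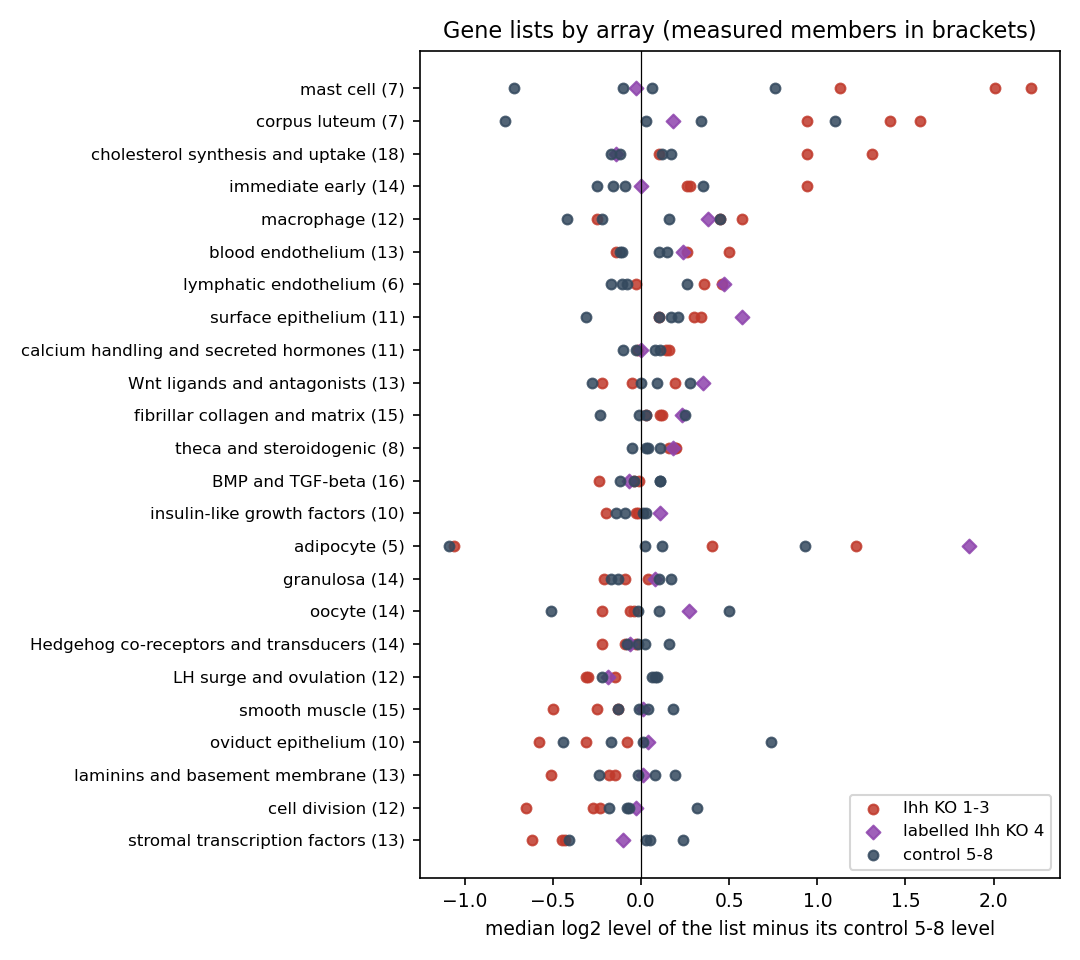
Each row is a gene list with its number of measured members in brackets, and the horizontal axis is the median over those members of each array's log2 level minus the mean of controls 5 to 8. Mast cell genes are higher on the 3 Ihh KO arrays (red, 1.13 to 2.21) than on any control (grey, -0.72 to 0.76), and the array labelled Ihh KO 4 is the purple diamond.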

How the data were processed

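Total RNA of whole ovaries (50 ng) was amplified, biotin-labelled and hybridized to Affymetrix arrays, per the labels' protocols. The deposited value table holds linear signal intensities made by the authors with MAS5, per the submitters' processing notes; no MAS5 version or detection call was used here. The table has 45101 probe sets, of which 64 are Affymetrix controls and were left out. The platform annotation gives 1 gene for 34945 of the rest, several for 932 and none for 9160; no symbol changed on matching 34741 to RefSeq. The number of arrays limits the precision.

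Ihh KO 1 to 3 and controls 5 to 8 were compared on log2(signal + 7.01) with limma 3.58.1 (R 4.3.3; lmFit, eBayes with an intensity trend, two-sided), with Benjamini-Hochberg adjustment over 45037 probe sets and a threshold of 0.05. The script was checked on simulated arrays. Hybridization sets are not in the labels and were read from the added bacterial RNAs.

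Text names the Hedgehog genes, the 15 largest called rises and falls, up to 4 members of smallest p in each of 27 lists, and the 10 largest uncalled rises and falls with unadjusted p under 0.001; genes known by a clone, Gm or Rik number were skipped. List members outside this rule are named where they lay above or below all controls, which was chosen after their values were seen. The members and lists were chosen with earlier results of these data known. Alternatives were filters on low values at the 40th and 60th percentile, other pseudocounts (the 25th percentile, and 1), quantile normalization and median centring. Further ones were other variance moderation, array weights, 1 probe set per gene, and the Dhh KO arrays in the fit. The rest were 18 arrays (all but Ihh KO 4) with the set as a block, Ihh KO 4 kept, and each array left out. Promoter windows came from RefSeq (GRCm38.p6).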

Additional observations from a re-analysis of the deposited data

Results flagged for a closer look

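Among the 102 named probe sets followed, 8 had 1 control array standing apart from the other 3 by Dixon's test. Chance gives about 1 such group in 20. Control 5 was that array for 4 genes. It read 195 for Stc1 (the other controls 593 to 714), 2052 for Myh11 (3115 to 3258), 387 for Bpifb1 (219 to 233) and 9.89 for Cd3e (4.28 to 4.56). Control 8 was that array for 3. It read 74.2 for Cish (138 to 149), 3229 for Fgfr2 (2407 to 2513) and 5104 for Ptch1 (4236 to 4351). Control 6 read 7103 for Inhbb (8100 to 8317). For Stc1, limma called the probe set once control 5 was left out, and it was the single call of that fit.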

How the results depend on the processing

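The 4 calls depended on the processing. The count was 2 with the filter at the 40th percentile and 0 with that at the 60th (2168 probe sets at unadjusted p under 0.05), 0 after quantile normalization (4651 at unadjusted p under 0.05), 10 after median centring (7 higher and 3 lower) and 0 without an intensity trend (5262). It was 0 with 1 probe set per gene (2545), 23 with the Dhh KO arrays sharing the spread, 89 with 18 arrays and the set as a block (13 higher and 76 lower) and 0 with the array labelled Ihh KO 4 kept (5225). With array weights limma called 2077 (609 higher and 1468 lower), Ihh KO 2 having a weight of 4.179 and the others 0.451 to 1.747. It was 4 with the larger pseudocount, 3 with a pseudocount of 1 and 5 with robust moderation. With each array left out in turn it ran over 0 to 20. It was 0 without Ihh KO 1, Ihh KO 2, control 7 or control 8. The cause was not tested.

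Over the alternatives the adjusted p lay between 0.00069 and 0.28 for Hhip 1438083_at, 0.00043 and 0.38 for Smpx, 0.0015 and 0.37 for Pank1 and 0.00066 and 0.33 for 1454649_at. Of 1966 values of 102 named probe sets, 0 turned sign, 39 lost the call and 128 gained it. These 102 were mostly probe sets with an unadjusted limma p under 0.05 between Ihh KO 1 to 3 and controls 5 to 8. The alternatives largely reuse the same arrays, so the kept signs are no test of robustness. Of 538 list medians 41 moved by more than the array spread, and those of 10 lists (adipocyte, BMP and TGF-beta, fibrillar collagen, granulosa, Hedgehog transducers, insulin-like growth factors, oocyte, oviduct, red blood cell and Wnt) turned sign in 1 or more alternatives. No paired analysis was possible because Ihh KO 1 to 3 and controls 5 to 8 share no replicate number.

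Low signals limit what can be read: values under the pseudocount, such as Hhip on Ihh KO 2, have little meaning as ratios. The labels do not say how the ovaries were staged in the estrous cycle.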

Other observations

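Several probe sets of a gene read different parts of its transcripts, so genes with more than 1 probe set at an unadjusted p under 0.001 are given here, chosen after their values were seen. There were 12, and the probe sets under that p lay in 1 direction for each. All 4 Hhip probe sets and 4 of the 6 of Trim2, a RING finger ubiquitin ligase, were among them, Trim2 being higher in Ihh KO by 0.79 to 0.99 (log2). Scd1 (1.33 to 1.35), Lipg (2.46 to 2.59) and Scarb1 (1.05 to 1.17), which act in lipid metabolism and uptake, had 2 probe sets higher. The transcriptional regulator Zfp536 (-1.83 to -1.81), the nicotinic receptor subunit Chrna4 (-1.53 to -1.31), the solute carrier Slc45a3 (-1.33 to -1.18), Hspa12a (-1.09 to -0.91), Fgfr2 (-0.89 to -0.82) and the lipid raft protein Rftn2 (-0.86 to -0.78) had 2 lower. Apart from 1 Hhip probe set none was called by limma in the fit of 7 arrays. Scd1, Slc45a3 and Zfp536 have only these 2 probe sets. Hspa12a has 4, and Fgfr2, Lipg, Scarb1, Chrna4 and Rftn2 have 3 each. The further probe sets of these genes did not reach that p, and their directions were not counted.

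Genes next to Ihh on mouse chromosome 1 were read as values, also chosen after values were seen. Of the 10 protein-coding genes on each side in RefSeq, 19 were measured, none was called in the fit of 7 arrays, and the median log2 change was -0.15. Changes lay between -1.20 and 0.35. On 1 side Cdk5r2 averaged 49.2 in Ihh KO and 125 in controls (-1.20, adjusted p = 0.30) and Wnt6 averaged 192 in Ihh KO and 399.9 in controls (-1.03, adjusted p = 0.31). With 18 arrays and the set as a block limma called another Wnt6 probe set (-1.05, adjusted p = 0.043). Cdk5r2 and Wnt6 were the ones with an unadjusted p under 0.05, against 13.9% of all genes.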
